A study of Mus musculus with 6 samples.

Results

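The visual cycle genes of the retinal pigment epithelium (RPE) described here are Rpe65, Lrat, Rlbp1, Rdh5, Rdh10, Rdh11, Rgr, Rrh and Stra6. They were chosen by name as the enzymes, carriers and non-visual opsins of the RPE that handle vitamin A, and all 9 were found among the 15663 genes listed. RNA was sequenced from the RPE-choroid, which holds the pigmented epithelium under the photoreceptors and the vessels that feed it, of 3 control mice and 3 mice with subretinal fibrosis (SRF), and the comparison asks which genes differ in the fibrotic tissue. All mice were male C57BL/6J aged 8 to 10 weeks when provided, and the control mice were healthy mice for which no laser is listed. The SRF mice received 4 laser burns per eye, each lesion was burned again 10 days later, and RNA was extracted 20 days after that second laser. The laser makes separate lesions, and the sources used here do not say that lesions were dissected from the rest of the RPE-choroid. Each library was labelled as a separate mouse of its group, so the p-values measure the spread between these mice. In bulk RNA, fewer RPE cells and less RNA of a gene per cell cannot be told apart.

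The visual cycle returns the light-spent chromophore of the photoreceptors to its cis form. Vitamin A (all-trans-retinol) is taken up by the RPE, joined to a fatty acid by LRAT, isomerized and freed from the ester by RPE65, and oxidized to cis-retinal by retinol dehydrogenases while bound to the carrier CRALBP, the product of Rlbp1. RGR and peropsin, the product of Rrh, are opsins of the RPE that bind retinal, and loss of several of these genes in people causes inherited retinal dystrophies.

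The tissue label was checked against marker genes. All 20 other RPE genes and all 10 endothelial genes looked for were listed and tested, although Best1 and Cldn19 were low, with control means of 3.48 and 3.06 CPM (counts scaled to a common library size by TMM normalization). All 25 photoreceptor genes were tested as well, although photoreceptors are not part of the RPE-choroid. Averaged as log2 CPM, the photoreceptor genes lay at 7.72, 5.16 and 4.44 in control mice 1, 2 and 3 and 4.02, 4.86 and 7.77 in SRF mice 1, 2 and 3, so that control mouse 1 and SRF mouse 3 stood apart, 1 in each group. Not every gene of the list followed this. Gngt2 had 23.6, 20.2 and 15.8 CPM in control mice 1, 2 and 3 and 31.3, 31.2 and 28.85 CPM in SRF mice 1, 2 and 3.

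All 9 genes were lower in SRF than in control mice. Rrh was lower by 41.3% in the fitted counts, Lrat by 40.1%, Rgr by 38.1% and Rdh10 by 36.4%. Rpe65 and Rdh5 were lower by 29.9% and 29.1%, and Rlbp1, Stra6 and Rdh11 by 18.5%, 17.7% and 16.5%. The median log2 fold change of the 9 genes was -0.51, where the median of all 13454 tested genes was 0.00 and 49.7% of them were lower in SRF. For 8 of the 9 genes, Rdh5 being the exception, every SRF library had a lower CPM than every control library. Of all tested genes 6.43% did so, and 13.1% had no overlap in either direction.

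The strength of the call depended on the tool. A gene counted as called where its adjusted p was under 0.05 and it differed by 0.5 or more on the log2 scale. By edgeR's quasi-likelihood test, with p-values adjusted by the Benjamini-Hochberg method, 0 of 13454 genes (0%) were called, so none of the 9 was, while 943 genes (7.01%) had an unadjusted p under 0.05. At an unadjusted p under 0.05 edgeR placed 6 of the 9 genes lower in SRF, where 2.85% of all tested genes met that mark in that direction, and Stra6, Rdh5 and Rdh11 were the 3 that did not. DESeq2, the tool named in the labels, called 153 genes (1.14%) at the same thresholds, and Rrh, Lrat and Rgr were among the 45 that it called lower (0.336% of 13373).

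The start sites of the 3 genes that DESeq2 called are shown with that of Rpe65, the isomerase, to set the 3 largest decreases beside the central enzyme. Each stretch is RefSeq sequence on GRCm38.p6, from 250 bases before to 50 after an annotated transcript start, and 8 of the 9 genes had such a window, Rdh10 being the exception. The Rrh window is chr3:129822456-129822755 on the minus strand, that of Lrat is chr3:82903925-82904224 on the minus strand, that of Rgr is chr14:37048965-37049264 on the minus strand, and that of Rpe65 is chr3:159598931-159599230 on the plus strand. Capitals mark TAATCC, the letters that homeodomain factors of the OTX2 and CRX kind bind, and CACGTG or CACATG, E-boxes of the kind MITF binds, each read on both strands.
Rrh: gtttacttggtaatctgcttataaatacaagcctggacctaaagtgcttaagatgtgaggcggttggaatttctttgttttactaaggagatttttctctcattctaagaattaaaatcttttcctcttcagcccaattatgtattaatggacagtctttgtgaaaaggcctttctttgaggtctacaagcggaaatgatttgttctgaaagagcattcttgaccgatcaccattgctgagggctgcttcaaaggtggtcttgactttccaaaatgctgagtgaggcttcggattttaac
Lrat: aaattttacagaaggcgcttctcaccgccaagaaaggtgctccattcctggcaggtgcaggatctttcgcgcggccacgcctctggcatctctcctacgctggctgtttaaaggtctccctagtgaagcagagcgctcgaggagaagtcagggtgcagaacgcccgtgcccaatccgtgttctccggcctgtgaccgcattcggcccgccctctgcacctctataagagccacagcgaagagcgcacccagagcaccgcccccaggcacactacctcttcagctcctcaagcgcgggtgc
Rgr: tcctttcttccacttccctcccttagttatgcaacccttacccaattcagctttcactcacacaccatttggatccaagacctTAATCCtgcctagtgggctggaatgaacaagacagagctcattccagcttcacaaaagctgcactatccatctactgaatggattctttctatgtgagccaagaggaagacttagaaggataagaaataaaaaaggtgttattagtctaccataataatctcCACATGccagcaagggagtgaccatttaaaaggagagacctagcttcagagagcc
Rpe65: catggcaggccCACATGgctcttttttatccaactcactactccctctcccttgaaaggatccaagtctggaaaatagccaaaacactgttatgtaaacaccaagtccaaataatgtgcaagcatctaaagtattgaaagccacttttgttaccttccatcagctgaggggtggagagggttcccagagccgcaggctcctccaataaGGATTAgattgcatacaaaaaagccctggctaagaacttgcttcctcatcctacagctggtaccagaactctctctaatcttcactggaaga
The Rgr window held TAATCC and CACATG. The Rpe65 window held CACATG and, as GGATTA, the reverse complement of TAATCC. Neither the Rrh nor the Lrat window held any of the 3 motifs, nor did those of Rdh5 and Stra6. Of the members' other windows, that of Rlbp1 held CACATG and 1 of the 2 Rdh11 windows held CACGTG at 2 places. No motif overlapped another. TAATCC was found in 7.06%, CACGTG in 7.15% and CACATG in 14.2% of all 32851 windows. Counted by gene, 4 of the 8 members with a window held any of the motifs, as did 8 of 15 other RPE genes (53.3%) and 29.0% of all genes. The largest decreases were thus seen in genes with these letters in the window, Rgr, and in genes without them, Rrh and Lrat, which says nothing of the factors themselves.

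Stra6 encodes the membrane receptor through which the RPE takes up retinol from its carrier in blood. It is annotated at chr9:58063788-58153996 (ENSMUSG00000032327, positions on GRCm38 from GENCODE M21). Ccdc33 overlaps it on the opposite strand, and Gm16131, which is not among the genes listed, overlaps it on its own strand. Whether the counting used strand is not given in the sources used here. The FPKM of Stra6, a deposited value that scales fragments by transcript length and library size, was 351, 438 and 363 in control mice 1, 2 and 3, and 352, 330 and 310 in SRF mice 1, 2 and 3. On this scale the groups overlapped, because SRF mouse 1 lay level with control mouse 1. The log2 fold change of Stra6 was -0.28 ± 0.12 (SE, 95% interval -0.57 to 0.01), with adjusted p = 0.734 in edgeR's quasi-likelihood test. It was among the 3 members with the smallest decreases.

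Lrat encodes lecithin retinol acyltransferase, which makes the retinyl esters that the RPE stores and that the isomerase uses. The gene lies at chr3:82892579-82903973 (ENSMUSG00000028003), where Rbm46os, which is not among the genes listed, overlaps it on the opposite strand. Its FPKM was 320, 366 and 368 in control mice 1, 2 and 3, and 232, 191 and 229 in SRF mice 1, 2 and 3. The lowest control library was above the highest SRF library by a wide gap relative to the spread within each group, whose SDs were 27.3 and 22.9 FPKM (n = 3 each). This was a log2 fold change of -0.74 ± 0.13 (SE, 95% interval -1.05 to -0.43). The edgeR quasi-likelihood test gave adjusted p = 0.227, and DESeq2 gave adjusted p = 7.69e-05.

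Rpe65 encodes the retinoid isomerohydrolase that turns the ester made by LRAT into cis-retinol. It lies at chr3:159599175-159625321 (ENSMUSG00000028174). Its FPKM was 2534, 2334 and 1861 in control mice 1, 2 and 3, and 1894, 1600 and 1370 in SRF mice 1, 2 and 3. Control mouse 3 lay just under SRF mouse 1 on this scale, whereas in TMM-normalized CPM it stayed just above it, with 3511 against 3454 CPM. For Rpe65 the log2 fold change was -0.51 ± 0.17 (SE, 95% interval -0.90 to -0.12), with edgeR adjusted p = 0.539, and DESeq2 gave adjusted p = 0.121. Rpe65 and Lrat, which act in succession, kept an overlapping FPKM ratio of 6.46 ± 1.44 in control and 7.50 ± 1.32 in SRF mice (SD, n = 3 each).

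Rlbp1 encodes CRALBP, which holds cis-retinol and cis-retinal in the RPE and in Müller glia. It lies at chr7:79374870-79387048 (ENSMUSG00000039194). Its FPKM was 1289, 1308 and 1318 in control mice 1, 2 and 3, the closest set of controls among the 9 genes, and 1179, 1018 and 1075 in SRF mice 1, 2 and 3. The groups did not overlap, although the decrease was small, with a log2 fold change of -0.30 ± 0.11 (SE, 95% interval -0.55 to -0.04). The edgeR quasi-likelihood test gave adjusted p = 0.609. The 8 markers of Müller glia, which also makes CRALBP, had a median log2 fold change of 0.00 but varied widely between mice. Their mean log2 CPM lay between 6.175 and 7.043 in control and between 5.836 and 7.096 in SRF mice. The highest values were those of control mouse 1 and SRF mouse 3. The part of Müller glia in the levels of Rlbp1 and Rgr was not tested.

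Rdh5, Rdh10 and Rdh11 encode retinol dehydrogenases. RDH5 is the main cis-retinol dehydrogenase of the RPE, RDH11 is a broader enzyme that can share this step, and RDH10 oxidizes retinol in the RPE and, in other tissues, starts the synthesis of retinoic acid. They lie at chr10:128913593-128922888 (Rdh5, ENSMUSG00000025350, overlapped on its own strand by Bloc1s1, whose reads cannot be told apart from those of Rdh5 where they share exons), chr1:16105774-16133734 (Rdh10, ENSMUSG00000025921) and chr12:79174337-79192293 (Rdh11, ENSMUSG00000066441).

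Rdh10 showed the largest decrease of the 3. Its FPKM was 534, 561 and 717 in control mice 1, 2 and 3, and 376, 332 and 482 in SRF mice 1, 2 and 3, so that all SRF libraries lay under all controls and mouse 3 was the highest of each group. Rdh10 thus had a log2 fold change of -0.65 ± 0.19 (SE, 95% interval -1.09 to -0.21), with edgeR adjusted p = 0.434, and DESeq2 gave adjusted p = 0.0599. Without control mouse 1 and SRF mouse 3, whose libraries stood apart in photoreceptor RNA, edgeR's log2 fold change was -0.90 with adjusted p = 0.0342.

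Rdh5 was the member whose groups overlapped in CPM as well as in FPKM. Its FPKM was 2871, 3368 and 2471 in control mice 1, 2 and 3, and 2719, 2108 and 1580 in SRF mice 1, 2 and 3. SRF mouse 1 lay above control mouse 3, and mouse 3 was the lowest of each group, opposite to its place for Rdh10. Its log2 fold change was -0.50 ± 0.22 (SE, 95% interval -1.01 to 0.02), with edgeR adjusted p = 0.737. It moved between -0.72 without SRF mouse 1 and -0.32 without SRF mouse 3.

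Rdh11 was by far the least abundant per length, with 32.9, 28.9 and 30.5 FPKM in control mice 1, 2 and 3, and 25.2, 25.6 and 30.8 FPKM in SRF mice 1, 2 and 3. SRF mouse 3 lay within the control range in FPKM. Rdh11 had a log2 fold change of -0.26 ± 0.12 (SE, 95% interval -0.54 to 0.02), with edgeR adjusted p = 0.763. In each library the FPKM ratio of Rdh10 to Rdh11 could be read without regard to depth, and it was 19.7 ± 3.62 in control and 14.5 ± 1.38 in SRF mice (SD, n = 3 each), with no overlap between the groups.

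Rgr encodes the retinal G protein-coupled receptor, an opsin of the RPE and Müller glia that photoisomerizes retinal in light. It lies at chr14:37034909-37048964 (ENSMUSG00000021804). Its FPKM was 7584, 8745 and 7801 in control mice 1, 2 and 3, and 6273, 4961 and 5154 in SRF mice 1, 2 and 3. Per length it ranked between 5 and 7 among all genes in the control libraries and between 8 and 10 in the SRF libraries. It took between 2.39% and 2.65% of all counts in control mice, more than any other gene, and between 1.43% and 1.78% in SRF mice. No SRF library reached the lowest control, and the log2 fold change was -0.69 ± 0.12 (SE, 95% interval -0.97 to -0.41). The edgeR quasi-likelihood test gave adjusted p = 0.227, and DESeq2 gave adjusted p = 6.89e-05. The decrease was smaller in FPKM, where the SRF mean was 67.9% of control, than in CPM, where it was 61.95%. The newer form of edgeR's quasi-likelihood test gave the same fold change with a larger SE of 0.19 and adjusted p = 0.404.

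Rrh encodes peropsin, a retinal-binding opsin of the RPE microvilli. It lies at chr3:129804408-129822587 (ENSMUSG00000028012). Its FPKM was 379, 339 and 341 in control mice 1, 2 and 3, and 232, 183 and 220 in SRF mice 1, 2 and 3. The groups lay far apart relative to their SDs of 22.4 and 25.6 FPKM, and Rrh had the largest fitted decrease of the 9 genes. It amounted to a log2 fold change of -0.77 ± 0.13 (SE, 95% interval -1.08 to -0.46), with edgeR adjusted p = 0.227, and DESeq2 gave adjusted p = 1.76e-05. The FPKM ratio of the opsins, Rgr to Rrh, overlapped between the groups at 22.9 ± 2.88 in control and 25.8 ± 2.12 in SRF mice (SD, n = 3 each).

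A two-sided exact permutation test of log2 CPM gave p = 0.1 for 8 of the 9 genes, the smallest p that 3 mice against 3 allow, and p = 0.2 for Rdh5. That smallest p is reached wherever the groups do not overlap, as for 13.1% of all tested genes, so it repeats the lack of overlap given above.

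**Figure D1:**
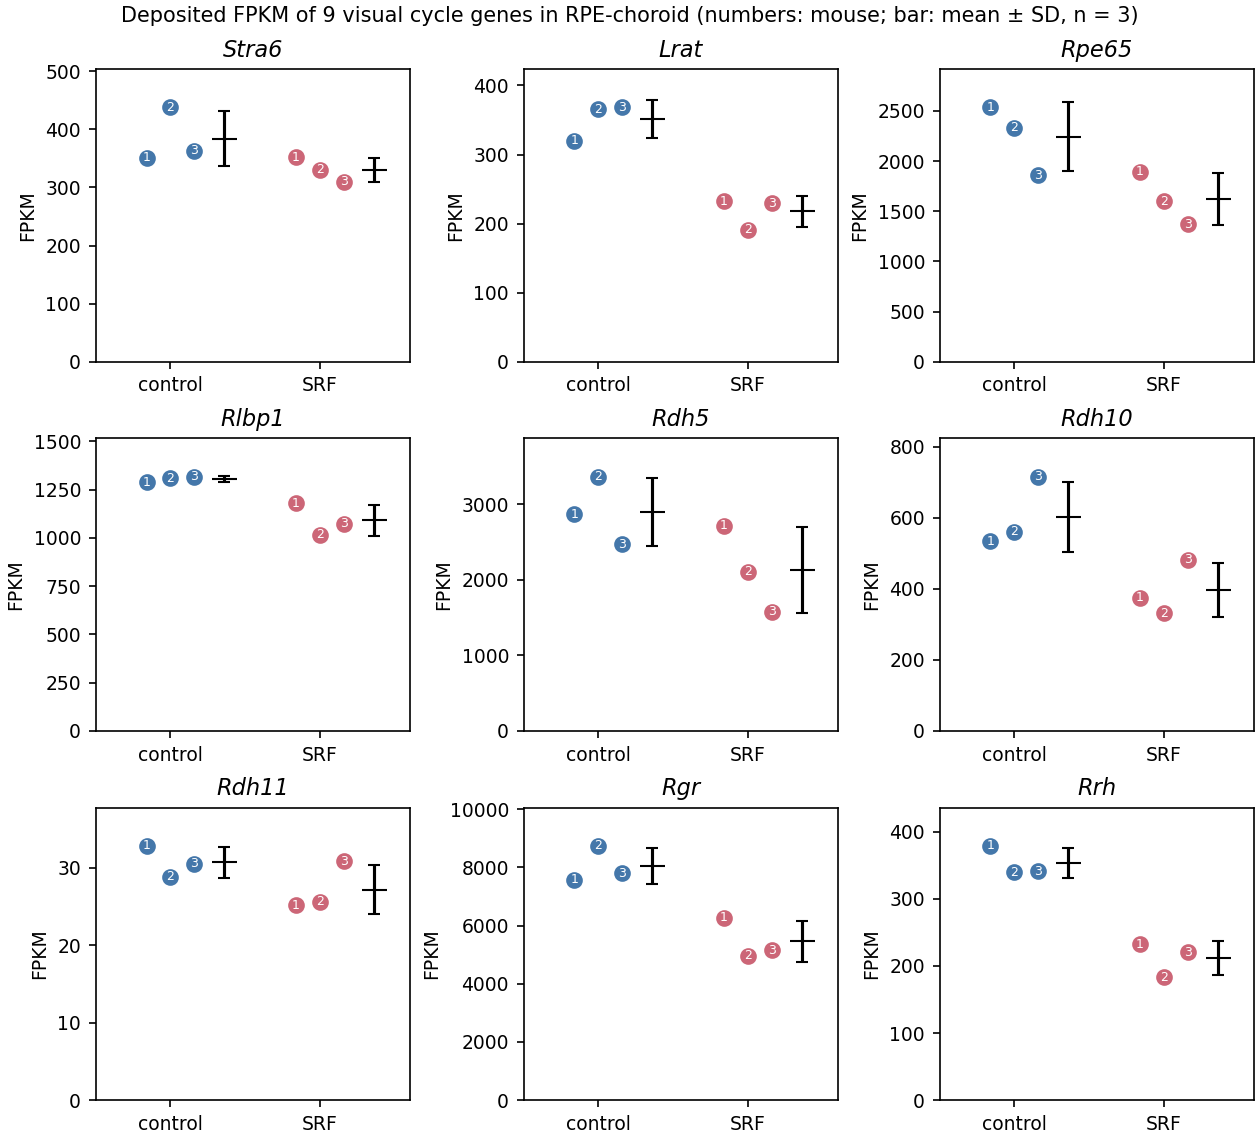
Deposited FPKM (vertical axes, each from 0) of the 9 visual cycle genes, 1 panel a gene, in the 3 control and 3 SRF libraries. Numbers mark the mouse and bars show the mean ± SD (n = 3). Lrat, Rrh, Rgr, Rdh10 and Rlbp1 do not overlap between the groups on this scale, whereas Rpe65, Rdh5, Rdh11 and Stra6 do.

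The order of the levels per length was similar in both groups. In control mice Rgr led with 8043 ± 618 FPKM (SD, n = 3), followed by Rdh5 (2903 ± 449) and Rpe65 (2243 ± 346), whose ranges overlapped, then Rlbp1 (1305 ± 14.7) and Rdh10 (604 ± 98.7). Stra6 (384 ± 46.9), Rrh (353 ± 22.4) and Lrat (351 ± 27.3) followed, with the ranges of Stra6 and Rrh and of Rrh and Lrat overlapping, and Rdh11 (30.8 ± 2.01) came last. In SRF mice Rgr again led with 5463 ± 708 FPKM and Rdh11 was again last with 27.2 ± 3.15. Among the genes between them, Stra6 (331 ± 20.9) no longer overlapped with Lrat (218 ± 22.9) or Rrh (212 ± 25.6), and its range now overlapped with that of Rdh10 (397 ± 77.0). The FPKM ratio of Lrat to Stra6 was 0.920 ± 0.0902 in control and 0.660 ± 0.0805 in SRF mice, and that of Rrh to Stra6 was 0.931 ± 0.152 and 0.642 ± 0.0800, with no overlap between the groups for either ratio. These were 3 of 10 ratios with that property, counting Rdh10 to Rdh11, and they were chosen after the values were known and are given without a test. Summed over the 9 genes, the visual cycle took 3.94%, 4.27% and 3.90% of all counts in the control libraries, in the order of their numbers, and 3.05%, 2.50% and 2.62% in the SRF libraries.

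Without control mouse 1 and SRF mouse 3, the libraries rich in photoreceptor RNA, Rrh, Lrat and Rgr stayed lower in SRF, DESeq2 called 4 of the 9 genes (Rrh, Lrat, Rgr and Rdh10) lower, beside 1.68% of all genes with an adjusted p, and edgeR called 2 (Lrat and Rdh10), beside 0.32%. In either direction 514 and 154 of all genes were called in these fits with 2 mice a group. Rpe65 was less reduced there, with a log2 fold change of -0.33 and an adjusted p = 0.328 in edgeR. Macrophage genes also moved with the groups: 14 of 15 were higher in SRF, 10 of them at an unadjusted p under 0.05 in edgeR. Of all tested genes 4.16% were higher at that mark. The mean log2 CPM of the macrophage genes lay between 5.44 and 5.77 in control and between 6.17 and 6.50 in SRF mice. The 6 fibroblast genes were all higher in SRF, with a median log2 fold change of 0.54 and overlapping groups (8.60 to 9.51 against 9.21 to 9.71), and the endothelial genes had a median of 0.02. The part of these cell types in the lower visual cycle levels was not tested.

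The other RPE genes had a smaller median decrease, and the difference between the lists was not tested. Of the 20, which include genes of transport, pigment and adhesion, 14 were lower and 6 higher in SRF. Among the higher ones were the pigment genes Tyrp1, Dct, Pmel and Mlana, which melanocytes also make, and Best1, at low level. In edgeR 6 of the lower ones and none of the higher ones had an unadjusted p under 0.05, beside 2.85% of all tested genes that were lower at that mark. The log2 fold changes of those 6 lay between -0.58 and -0.44. The median log2 fold change of the 20 was -0.26. That median lay between -0.29 and -0.13 with 1 mouse left out in edgeR, the latter without SRF mouse 3. It includes the pigment genes and the low Best1 and Cldn19, so it depends on the make-up of the list, and a median without them was not taken. The largest decreases were those of Kcnj13, an RPE potassium channel (-0.58 ± 0.19, SE), Mitf, a master factor of pigment cells (-0.55 ± 0.16), and Ermn, which encodes the actin-binding ermin (-0.52 ± 0.10). Each of these was lower by more than 5 of the 9 visual cycle genes, and Ermn was the 1 gene of this list that DESeq2 called. The smallest decreases were those of Ezr, which encodes the microvillar protein ezrin (-0.08 ± 0.17), Tyr, the tyrosinase of melanin synthesis (-0.10 ± 0.15), and Mertk, the receptor for engulfing photoreceptor outer segments (-0.11 ± 0.13).

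To set the visual cycle genes against the listed RPE genes, the mean log2 CPM of the 20 other RPE genes was subtracted from each gene in each library. On this scale Rrh was lower in SRF by a log2 difference of -0.61, Lrat by -0.58 and Rgr by -0.53, and the groups of these 3 genes did not overlap, which held for 1.23% of all tested genes in this direction. Rdh10 (-0.49), Rdh5 (-0.35) and Rpe65 (-0.35) were also lower but their groups overlapped. Rlbp1 (-0.13), Stra6 (-0.11) and Rdh11 (-0.10) lay closest to the other RPE genes. When edgeR was run with the libraries scaled to the other RPE genes, which moved the median of all genes by 0.15 on the log2 scale, all 9 genes were still lower, and 3 of them, Rrh (-0.62), Lrat (-0.57) and Rgr (-0.54), had an unadjusted p under 0.05, beside 0.587% of all genes that were lower at that mark. The pigment genes among the other RPE genes are also made by melanocytes of the choroid, so this scale depends on the make-up of the list. Tyrp1, Dct, Pmel and Mlana were higher in SRF by between 0.09 and 0.21 with TMM normalization, and Tyr was lower by 0.10. Cldn19 had 0.223 CPM in control mouse 1 against 4.94 and 4.005 CPM in control mice 2 and 3. A scale without these genes was not tested.

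**Figure D2:**
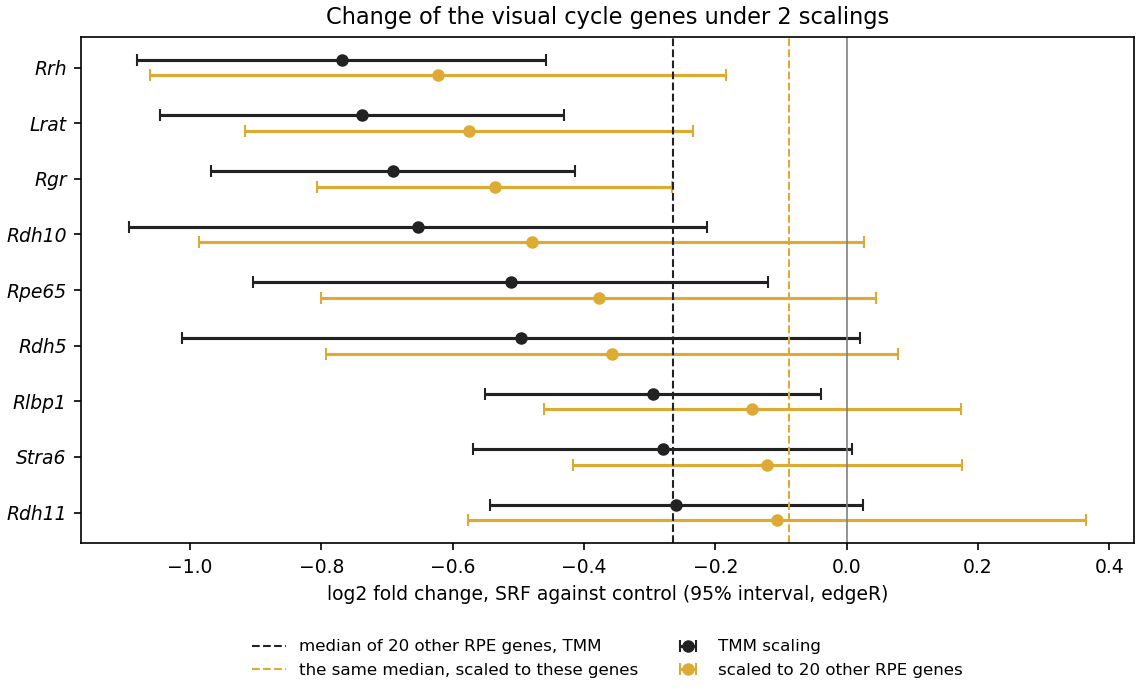
Log2 fold change, SRF against control, of each visual cycle gene with its 95% interval from edgeR (horizontal axis), with TMM normalization and with the libraries scaled to the other RPE genes. All 9 points lie below 0 under both scalings, and dashed lines in the same colours mark the median of the 20 other RPE genes, -0.26 with TMM and -0.088 when scaled to these genes.

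**Figure D3:**
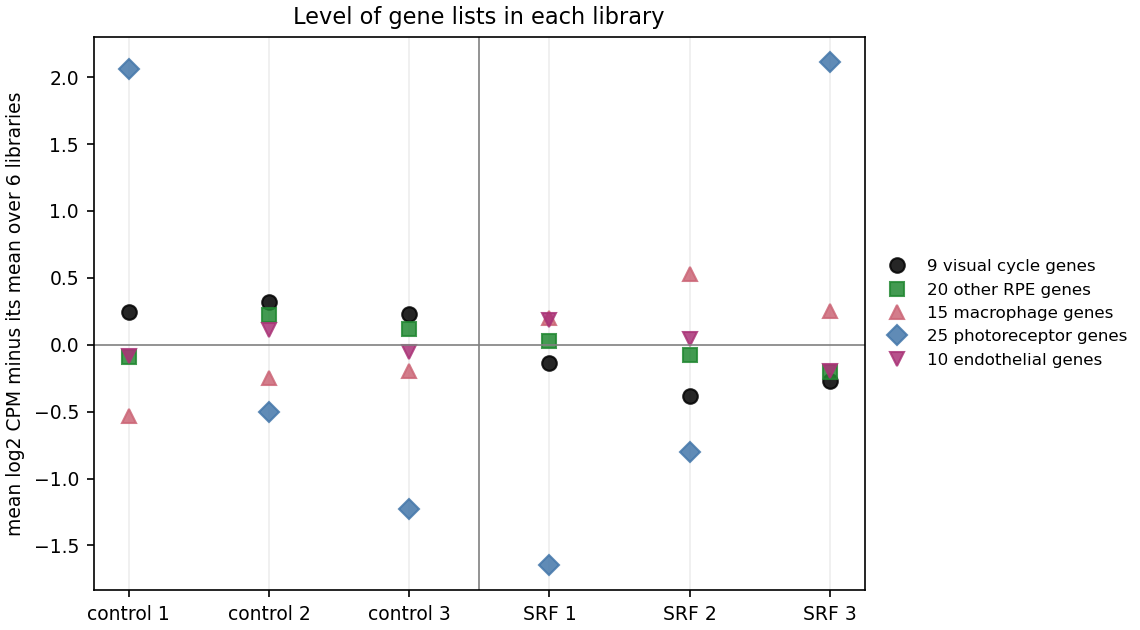
Mean log2 CPM of gene lists in each of the 6 libraries, each list centred on its own mean over the libraries (vertical axis). The visual cycle genes separate the groups, with control means between 10.75 and 10.84 and SRF means between 10.14 and 10.39 before centring, whereas the photoreceptor genes peak in control mouse 1 and SRF mouse 3.

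Genes that act next to the RPE enzymes in retinoid metabolism were less uniform. Their directions are given with TMM normalization, and scaling to the other RPE genes moves every log2 fold change up, so that decreases under about 0.15 can change sign. On the photoreceptor side 3 of 4 genes were listed, all with p over 0.05 and a median log2 fold change of -0.26. Among them Abca4, the flippase that clears retinal from outer segment discs, had 201 ± 57.9 CPM in control and 167 ± 61.2 in SRF mice (SD, n = 3 each). Its highest values were those of the libraries rich in photoreceptor RNA, control mouse 1 (266.4 CPM) and SRF mouse 3 (238 CPM). Of 5 opsins tested besides Rgr and Rrh, none had p under 0.05 in edgeR and the median was -0.11.

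Of 9 retinoid carriers and uptake genes, 7 were tested, 6 of these were lower in SRF and none of those 6 had p under 0.05 in edgeR. Ttr, which encodes transthyretin, the partner of the retinol carrier of blood, had a log2 fold change of -0.29 ± 0.28 (SE), with overlapping groups. The exception in direction was Stra6l, a relative of Stra6 that also takes up retinol, at very low level. It had 0.372, 0.543 and 0.376 CPM in control mice 1, 2 and 3 and 1.19, 3.73 and 3.42 CPM in SRF mice 1, 2 and 3. Its log2 fold change was 2.67 ± 0.58 (SE), with edgeR adjusted p = 0.303, and DESeq2 called it at adjusted p = 0.0177. Stra6l and Stra6 thus differed in direction, but 3 counts correspond to between 0.123 and 0.220 CPM here, so the control values of Stra6l rest on few reads. Stra6l exceeded 50 counts only in SRF mice 2 and 3, so it entered the test only through the group where it is high. Its p-values and the contrast with Stra6 are therefore description and not support for a difference.

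Of 17 other enzymes of retinol and retinal, 14 were listed and 10 tested, and 8 of these were lower in SRF, with a median of -0.16. Retsat, which saturates retinol, was the 1 with p under 0.05 in edgeR. It had 68.0, 62.1 and 59.9 CPM in control mice 1, 2 and 3 and 47.8, 43.7 and 44.4 CPM in SRF mice 1, 2 and 3, with no overlap. Its log2 fold change was -0.48 ± 0.11 (SE), edgeR gave adjusted p = 0.348, and DESeq2 gave adjusted p = 0.0206, short of the size needed for a call.

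Among the retinoic acid genes, genes with higher levels in SRF were in the majority. Of 12 genes 11 were tested, 3 were lower and 8 were higher in SRF, 4 of the latter at an unadjusted p under 0.05 in edgeR (4.16% of all tested genes were higher at that mark), and the median log2 fold change was 0.25. Cyp26a1, which degrades retinoic acid, had 34.5, 30.0 and 64.8 CPM in control mice 1, 2 and 3 and 71.2, 120 and 118 CPM in SRF mice 1, 2 and 3. Its groups did not overlap, the log2 fold change was 1.26 ± 0.34 (SE), edgeR gave adjusted p = 0.421, and DESeq2 called it at adjusted p = 0.0176. Its relative Cyp26b1 had a log2 fold change of 0.51 ± 0.19 with overlapping groups. The receptor genes Rxrb (0.71 ± 0.21) and Rxra (0.37 ± 0.14) were higher without overlap, as were 903 of all 13454 tested genes. For Rxrb and Rxra edgeR gave adjusted p = 0.478 and 0.628, and DESeq2 gave adjusted p = 0.216 and 0.695, so neither was called. Aldh1a1, which makes retinoic acid from retinal, had 113 ± 26.5 CPM in control and 107 ± 34.4 in SRF mice (SD, n = 3 each), a difference well within the spread between mice.

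**Figure D4:**
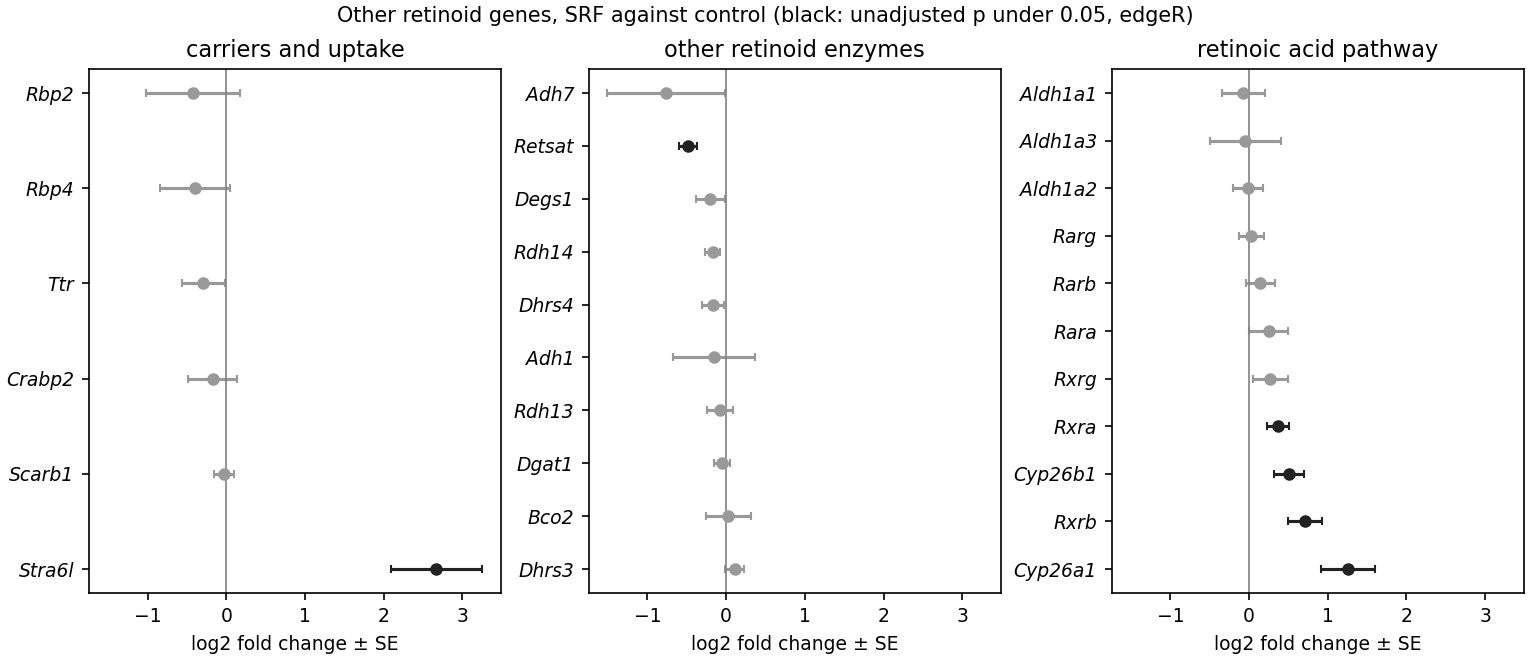
Log2 fold change ± SE, SRF against control (horizontal axes), of tested genes of the carrier, enzyme and retinoic acid lists, with black points for an unadjusted p under 0.05 in edgeR. Stra6l (2.67) and Cyp26a1 (1.26) lie furthest to the right, and Retsat (-0.48) is the black point to the left of 0.

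The genes whose levels ran most like those of the 9 members were found by the root-mean-square difference of centred log2 CPM over the 6 libraries, among 10531 other genes with at least 10 CPM. The closest were Slc16a9 (0.0549), Plbd1 (0.0563), Elovl1 (0.0570), Slco1c1 (0.0597) and Tshr (0.0605), where the median gene was at 0.334. The members themselves lay between 0.0918 for Rgr and 0.226 for Rdh10. The 5 were picked as the closest of 10531 genes and the members were not, so their distances cannot be weighed against those of the members. The log2 fold changes of the 5 lay between -0.59 for Tshr, the thyrotropin receptor gene, and -0.44 for Slc16a9, which encodes a monocarboxylate transporter family protein. Over 6 libraries in 2 groups such likeness largely repeats the difference between the groups, and it was chosen from these values.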

How the data were processed

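RNA-seq of RPE-choroid from 3 control and 3 SRF mice was analysed, with groups and replicate numbers, used here as mouse numbers, taken from the labels. The authors filtered reads with FASTP 0.18.0 and deposited whole-number counts per gene and FPKM values for each mouse, and the labels name StringTie and DESeq2. The aligner, genome build, annotation and strandedness are not given in the sources used here. Counts were used as deposited by the authors, without normalization, and totalled between 13667310 and 24356023 per library. The deposited FPKM values were used for levels between genes. No gene listed had a count under 1, and no pair of libraries agreed within sampling noise. A typical fold change had a standard error of 0.19 (log2, median over genes), which limits what could be detected.

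The 13454 genes that exceeded 50 counts in 2 or more libraries entered edgeR 4.0.16 (run in R 4.3.3 with TMM factors, the older quasi-likelihood form and the group only), and p-values were adjusted over them by the Benjamini-Hochberg method. The scripts had been tested on simulated data. Calls required an adjusted p under 0.05 and a log2 difference of 0.5 or more. CPM values are TMM-normalized. Single values were tested with a two-sided exact permutation test in scipy 1.17.1. DESeq2 1.42.0, limma 3.58.1 on counts (voom) and on log2(FPKM + 1) or log2(FPKM + 0.1), other normalizations and filters, a replicate block, a photoreceptor covariate and leaving out each mouse were alternatives, and DESeq2 with those changes was an addition made once the values were known.

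The 9 members and all gene lists were chosen with earlier results of these data known. The genes named are the 9 members, the 5 retinoid genes at most per list with the smallest unadjusted p under 0.05, Stra6l, Ttr, Aldh1a1 and Abca4 whatever their values (results of single genes that the rule also covers are not reported here), the 3 other RPE genes with the largest and the 3 with the smallest decrease, and the 5 genes closest to the members' profile. Best1, Cldn19, Otx2, Tyrp1, Dct, Pmel and Mlana, of the other RPE list, and Gngt2, of the photoreceptor list, are outside this rule and were chosen after their values were seen. Gene positions come from GENCODE M21 (GRCm38), which holds 15659 of the 15663 identifiers, and promoter windows from RefSeq.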

Additional observations from a re-analysis of the deposited data

How the results depend on the processing

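In all 29 alternative settings, each of the 9 genes was lower in SRF. None of the 9 was called by edgeR's main settings, nor by limma, other normalizations or filters, or leaving out 1 mouse in edgeR, and the counts that moved were as follows. DESeq2 called 3 of the 9 (153 of all genes), 5 (201) with a replicate block, 3 (260) with the photoreceptor level as a covariate, 1 (146, Lrat) scaled to the other RPE genes, 3 to 5 with 1 mouse left out (237, 91 and 182 of all genes without control mice 1, 2 and 3, and 153, 67 and 361 without SRF mice 1, 2 and 3), and 4 (514) without control mouse 1 and SRF mouse 3. Without these 2 libraries edgeR called 2 of the 9 and 154 of all genes, and 1 or 2 were called among all genes with limma-voom (1), the newer edgeR form (1), limma on log2(FPKM + 1) or log2(FPKM + 0.1) (2 each), total counts (1), RPE scaling (1), no filter (1), filterByExpr (1) and the photoreceptor covariate (1), and between 0 and 5 without each mouse, with 5 only without control mouse 1. Scaled to the other RPE genes, 3 of the 9 had an unadjusted p under 0.05 rather than 6. The members' median of -0.51 became -0.38 under that scaling (DESeq2 -0.38), lay between -0.64 (without SRF mouse 1) and -0.41 (without SRF mouse 3) with each mouse left out in either tool (-0.60 without control mouse 3), and was -0.33 without the 2 libraries (DESeq2 -0.34). The median of the other RPE genes, -0.26, lay between -0.29 and -0.13 with 1 mouse left out (-0.14 without control mouse 2, -0.15 without control mouse 3 and -0.13 without SRF mouse 3), and became -0.17 with limma-voom, -0.15 with log2(FPKM + 1), -0.12 with log2(FPKM + 0.1), -0.088 under RPE scaling and -0.084 in DESeq2 under it. The causes of these shifts were not tested.

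The mouse numbers do not mark shared animals, so they were not taken as pairs. The deviations of same-numbered mice from their group means had r = -0.479, 0.486 and -0.300 across genes for mice 1, 2 and 3. Between differently numbered mice r ran from -0.699 (control mouse 2 with SRF mouse 3) to 0.618 (control mouse 2 with SRF mouse 1). Deviations from a mean of 3 mice depend on each other, so these values cannot settle pairing. With the replicate block edgeR called 0 genes, with 1206 at an unadjusted p under 0.05, 7 of the 9 members among them, and their median was -0.52. With 3 mice a group and a median SE of 0.19 no gene was called in edgeR, and the differences of Rlbp1, Stra6 and Rdh11 are under the size of 0.5 that a call needs.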

Other observations

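None of 5 melanin genes of the RPE and choroid separated the groups. Of these, with TMM normalization, Tyrp1, Dct, Pmel and Mlana were higher in SRF by between 0.09 and 0.21 on the log2 scale and Tyr had a log2 fold change of -0.10, all with overlapping groups. Otx2, a homeodomain factor of the RPE and retina, had 312 ± 41.4 CPM in control and 247 ± 29.0 in SRF mice (SD, n = 3 each), with a log2 fold change of -0.33 ± 0.15 (SE) and adjusted p = 0.743 in edgeR's quasi-likelihood test.

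Within both groups mouse 3 had the lowest Rpe65, Rdh5, Ttr and Kcnj13 and the highest Rdh10 of its group. The numbers do not tie animals of the groups together, and this order was noticed in the values and not tested.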
